A study of Mus musculus with 48 samples.

Results

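Immediate early genes are described here across sorted brain microglia and whole spinal cord of young, old and old repopulated mice. The 10 genes, Fos, Fosb, Jun, Junb, Jund, Egr1, Atf3, Ier2, Dusp1 and Zfp36, were taken by symbol from the 35870 genes of the deposited count table. Each had 1 row, and all 10 passed the low-count filter in both tissues. All libraries came from wild type male C57BL/6 mice perfused with PBS, with 8 libraries in each of 6 groups. Young mice were 3 months old and given vehicle, and old mice were 23 months old and given vehicle. Repopulated mice were also 23 months old, but received a Csf1r inhibitor, which the labels do not name, for 5 days and were left to recover for 7 days. Csf1r is the receptor whose signal microglia need to survive. Brains were turned into a cell suspension with an enzymatic kit on a heated dissociator, and Cd11b+ and Cd45+ cells were sorted, a gate that other myeloid cells can also pass. Spinal cords were frozen whole. Nothing in the labels tells whether libraries of a group came from different animals, or whether the 2 tissues share mice, and p-values therefore measure only the spread between libraries.

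Immediate early genes are transcribed within minutes of a stimulus, from factors already present in the cell and without new protein synthesis. Kinase cascades activate the serum response factor and its Elk partners, which bind CArG boxes, and Creb, which binds the cAMP response element (CRE). Fos and Fosb proteins pair with Jun, Junb or Jund to form the transcription factor AP-1, which drives later target genes. Egr1 is a zinc finger transcription factor, Atf3 a stress-induced factor of the ATF/CREB family, and Ier2 a nuclear protein induced early by growth signals. Dusp1 is a phosphatase that switches off MAP kinases, and Zfp36 (tristetraprolin) binds AU-rich messages of cytokines and has them degraded. Enzymatic dissociation of brain at warm temperature is known to induce many of these genes in microglia.

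Upstream sequence is shown for 5 of the members for which RefSeq gave a window. Each was called higher in some comparison within a tissue below, as was Fosb, which is not shown. RefSeq windows (GRCm38.p6, from 250 bases before to 50 after the start of transcription) matched 8 of the 10 members. Each line gives the 250 bases before the start, 5′ to 3′ on the strand of the gene, from chr12:85473640-85473889 (plus strand) for Fos, chr8:84978749-84978998 (minus) for Junb, chr1:191183334-191183583 (minus) for Atf3, chr17:26508473-26508722 (minus) for Dusp1 and chr7:28379229-28379478 (minus) for Zfp36. These starts are those of RefSeq. The gene spans of GENCODE M21 begin further upstream for Atf3, Dusp1 and Zfp36, so that these windows lie within those spans. Capitals mark every match, on either strand, to a CArG box, the CRE (TGACGTCA), its core (TGACG) or an Egr site (GCGNGGGCG).
Fos: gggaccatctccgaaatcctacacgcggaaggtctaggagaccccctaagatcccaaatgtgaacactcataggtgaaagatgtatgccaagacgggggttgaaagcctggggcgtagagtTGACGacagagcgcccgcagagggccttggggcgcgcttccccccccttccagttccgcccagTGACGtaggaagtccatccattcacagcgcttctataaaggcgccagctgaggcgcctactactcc
Junb: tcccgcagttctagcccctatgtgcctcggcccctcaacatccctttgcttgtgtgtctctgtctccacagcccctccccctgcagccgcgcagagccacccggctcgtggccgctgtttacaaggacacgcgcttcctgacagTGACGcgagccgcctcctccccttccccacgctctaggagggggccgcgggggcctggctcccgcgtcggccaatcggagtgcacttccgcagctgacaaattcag
Atf3: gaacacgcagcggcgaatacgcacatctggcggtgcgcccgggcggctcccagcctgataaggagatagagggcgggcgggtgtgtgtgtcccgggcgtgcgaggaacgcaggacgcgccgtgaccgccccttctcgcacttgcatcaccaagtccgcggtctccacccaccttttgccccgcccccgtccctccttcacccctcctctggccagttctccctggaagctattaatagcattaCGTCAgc
Dusp1: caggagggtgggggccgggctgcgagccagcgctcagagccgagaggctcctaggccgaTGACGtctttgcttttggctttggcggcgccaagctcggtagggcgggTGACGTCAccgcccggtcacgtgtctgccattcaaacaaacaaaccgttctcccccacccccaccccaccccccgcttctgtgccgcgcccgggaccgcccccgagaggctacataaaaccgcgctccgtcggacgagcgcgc
Zfp36: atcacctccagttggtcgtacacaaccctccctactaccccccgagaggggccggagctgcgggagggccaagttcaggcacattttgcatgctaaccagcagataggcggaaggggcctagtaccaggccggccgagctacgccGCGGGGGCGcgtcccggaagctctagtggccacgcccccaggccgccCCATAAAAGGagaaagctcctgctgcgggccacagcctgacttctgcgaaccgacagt
The CArG box of Zfp36 lay at positions −58 to −49 from the start, and 1.63% of all 32851 RefSeq windows held a CArG box. Dusp1 was the only one of the 8 members with a full CRE, at −143 to −136, against 1.79% of all windows. The core, which the full CRE of Dusp1 holds on both strands, was found in Fos, Fosb, Junb, Atf3 and Dusp1 (20.8% of all windows) and Egr sites in Fosb and Zfp36 (5.55%). The windows of Jun and Jund matched none of these motifs (that of Jund ends before the start of its GENCODE span), and the AP-1 site TGANTCA, held by 7.81% of windows, was in none of the 8 windows. These are matches of letters only, and sites more than 250 bases before the start lie outside the windows.

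Total counts ran from 15909868 to 34496308 per library. Levels are CPM, counts scaled to a common library size by TMM within a tissue, and TPM is used where levels of different genes are compared, since it is scaled to gene length. The lowest count of any member was 35, for Fosb in a repopulated cord library, and the lowest in microglia was 249, also for Fosb. The 8 microglial markers summed to between 50768 and 59276 CPM in young, 35491 and 43517 in old and 34771 and 42784 in repopulated microglia, and at least 3 of 10 neuron markers had a median count of 0 in each sorted group. Genes of other myeloid cells were present in the sort. The 10 neutrophil markers summed to between 812 and 1559 CPM in young, 2688 and 9633 in old and 1656 and 4474 in repopulated microglia. The 8 monocyte markers summed to between 45.2 and 109, 271 and 728, and 123 and 309 CPM in the same groups, and the 8 markers of border-associated macrophages to between 162 and 400.3, 328 and 683, and 83.1 and 185 CPM. Old microglia replicates 2 and 7 and repopulated cord replicate 6 had been set apart from their groups in earlier work on these data, and results are given without them where that matters. In bulk RNA, fewer cells of a type and less RNA per cell cannot be told apart. The library kit does not keep the strand, so reads of Jun and its antisense gene Junos, of Junb and Prdx2 (351 shared bases) and of Dusp1 and Ergic1 (640 shared bases) cannot be told apart where they overlap. The same holds for genes that the counts do not list. These are Gm44710 for Zfp36 (1274 shared bases), Gm11175 for Jund (919), Gm24748 for Atf3 (108) and further genes for Dusp1.

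In microglia Zfp36 was the most abundant member per length in every group, with median TPM of 596 in young, 819 in old and 911 in repopulated libraries. In young and old microglia its range did not overlap that of the next gene, Jun (227 to 352 TPM against 509 to 730) in young and Junb (277 to 469 against 610 to 1032) in old. Junb, Fos, Jun and Jund followed, with medians between 134 and 381 TPM and overlapping ranges. Fosb was last, at medians of 12.2 to 13.3 TPM, and its range lay below that of every other member in each microglia group. The order in cord was different. Jund led with medians of 63.7 to 68.0 TPM, followed by Jun at 51.8 to 54.9 and Egr1 at 33.8 to 36.1 TPM, and Zfp36 was sixth at 14.7 to 18.9 TPM. Fosb was again last, at 1.36 to 1.77 TPM. Neighbours in the cord order mostly overlapped, but Egr1 lay apart from Jun above it and from Dusp1 below it in young and old cord.

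**Figure D1:**
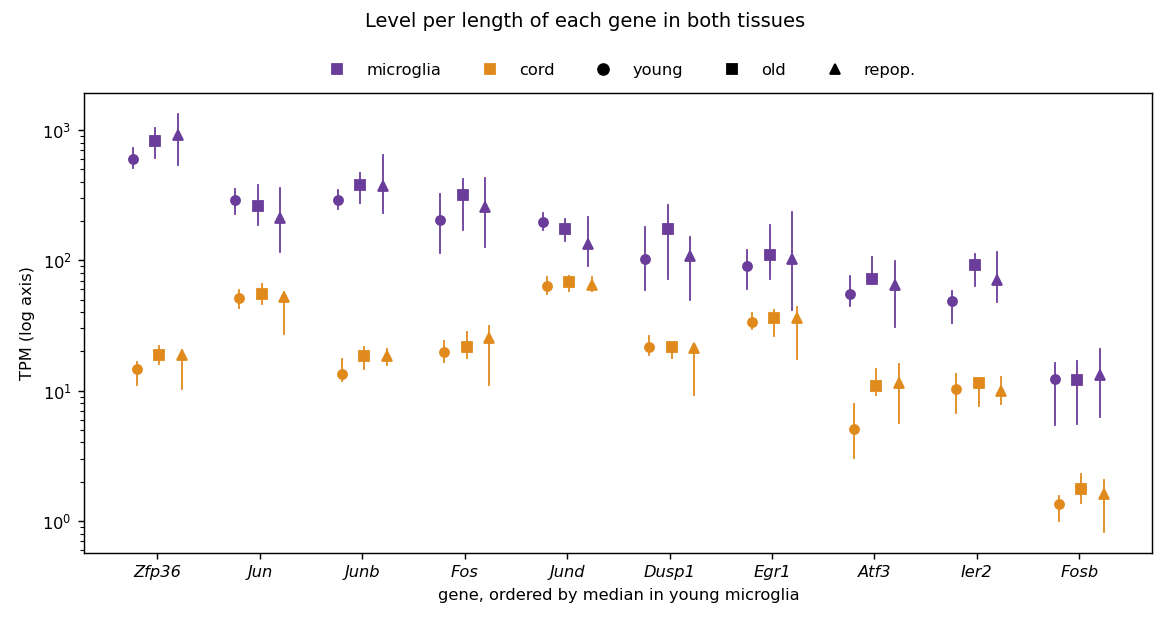
Median TPM of the 10 members in each of the 6 groups on a log axis, with bars from the lowest to the highest of 8 libraries. Zfp36 leads in microglia (median 596 to 911 TPM) and Jund in cord (63.7 to 68.0 TPM), and Fosb is last in both.

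All 10 members were higher in sorted microglia than in whole cord. In CPM scaled over both tissues, the 24 microglia libraries overlapped the 24 cord libraries for none of them. In TPM Egr1 overlapped, with a lowest microglia library of 41.4 and a highest cord library of 43.5, both repopulated. Among all genes 36.2% were called higher in microglia and 16.2% were higher without overlap in CPM. The difference was largest for Zfp36 (log2 6.57, SE 0.09) and Junb (log2 5.46, SE 0.09), and smallest for Jund (log2 2.40, SE 0.08) and Egr1 (log2 2.72, SE 0.13), by edgeR's quasi-likelihood test over all 48 libraries (adjusted p at most 8.32e-25). The median of all genes was −0.58 on the same scale. Zfp36 averaged 624 ± 74.7 CPM in young microglia and 6.84 ± 1.08 CPM in young cord (SD, n = 8, TMM over both tissues). Jund averaged 330 ± 29.2 and 50.7 ± 5.41 CPM in the same groups. Across 13 other settings the log2 difference stayed between 1.33 and 5.18 for Jund and between 5.41 and 7.07 for Zfp36. Tissue, dissociation, sorting and RNA kit differed together, so their parts cannot be told apart.

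Between old and young microglia 6 of the 10 genes rose and none fell, against 11% of all genes called higher and 10.7% called lower. The 6 were Fos of the Fos subunits, Junb of the Jun subunits, the regulators Atf3 and Ier2, and both feedback genes, Dusp1 and Zfp36. The median log2 change of the 10 was 0.49, and that of all genes was −0.01. Markers of other myeloid cells moved with the same comparison, as 9 of 10 neutrophil, 8 of 8 monocyte and 5 of 8 border-associated macrophage markers rose and none fell. All 8 microglial markers fell. The part of these in the changes was not tested. Log2 changes below are given with their standard error (SE) and the adjusted p of edgeR's quasi-likelihood test over 14382 genes.

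Ier2 (chr8:84661331-84662852, minus strand) had the largest change. It ran from 21.0 through a median of 28.3 to 39.2 CPM in young microglia and from 41.0 through 58.8 to 78.1 CPM in old microglia. Every old library lay above every young one, which held for 4.12% of all genes. Ier2 rose by 0.997 on the log2 scale (SE 0.16, adjusted p = 1.69e-05).

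Zfp36 ran from 390 through 433.5 to 505 CPM in young and from 452 through 610 to 813 CPM in old microglia. All 8 old libraries lay above the young median and 6 above the highest young library. It rose by 0.51 on the log2 scale (SE 0.13, adjusted p = 0.00344). Dusp1, the MAP kinase phosphatase, varied far more, from 43.7 through 80.3 to 148 CPM in young and from 59.2 through 143 to 239 CPM in old microglia. Its groups overlapped broadly, with 4 old libraries above the highest young one (log2 0.78, SE 0.27, adjusted p = 0.0338).

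Fos went from 94.6 through 175 to 288 CPM in young and from 150 through 271 to 410 CPM in old microglia. Here too 4 of 8 old libraries exceeded the highest young one and none lay below the lowest (log2 0.67, SE 0.23, adjusted p = 0.0373). Its paralog Fosb did not pass the test, at 7.90 through 19.3 to 28.0 CPM in young and 9.22 through 18.3 to 31.0 CPM in old microglia. The log2 difference of Fosb was 0.08, with a 95% interval from −0.41 to 0.57. The calls for Ier2 and Zfp36 held under every setting run, and the other 4 did not. With limma on log2(TPM + 1) Fos (adjusted p = 0.073), Dusp1 (0.074) and Junb (0.076) were not called, and with an offset on length and GC content Fos (0.084), Dusp1 (0.063) and Atf3 (0.066) were not. Those for Fos and Dusp1 were each lost without old replicates 2 and 7 together (adjusted p = 0.054 for Fos and 0.07 for Dusp1). Both were also lost when any 1 of 9 libraries was left out, young replicates 1, 2, 3, 4 and 8 and old replicates 1, 2, 4 and 8, with the adjusted p of Fos reaching 0.088 and that of Dusp1 0.09.

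Among the Jun subunits only Junb passed the test. Junb ran from 183 through 217 to 271 CPM in young and from 214 through 306 to 398 CPM in old microglia, and 6 old libraries lay above the young range (log2 0.46, SE 0.14, adjusted p = 0.0188). Jun had medians of 379 and 340 CPM and Jund of 234 and 213 CPM in young and old microglia. Their log2 differences were −0.11 (95% interval −0.38 to 0.16) and −0.11 (−0.33 to 0.12). Atf3 ran from 34.01 through 43.0 to 60.2 CPM in young and from 54.7 through 62.4 to 91.4 CPM in old microglia. All 8 old libraries lay above the young median of Atf3 and 5 above its highest young library (log2 0.55, SE 0.17, adjusted p = 0.0159). Egr1 was at 73.6 through 118 to 156 CPM in young and 92.3 through 148 to 251 CPM in old microglia and did not pass (log2 0.45, interval −0.02 to 0.92, adjusted p = 0.21).

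**Figure D2:**
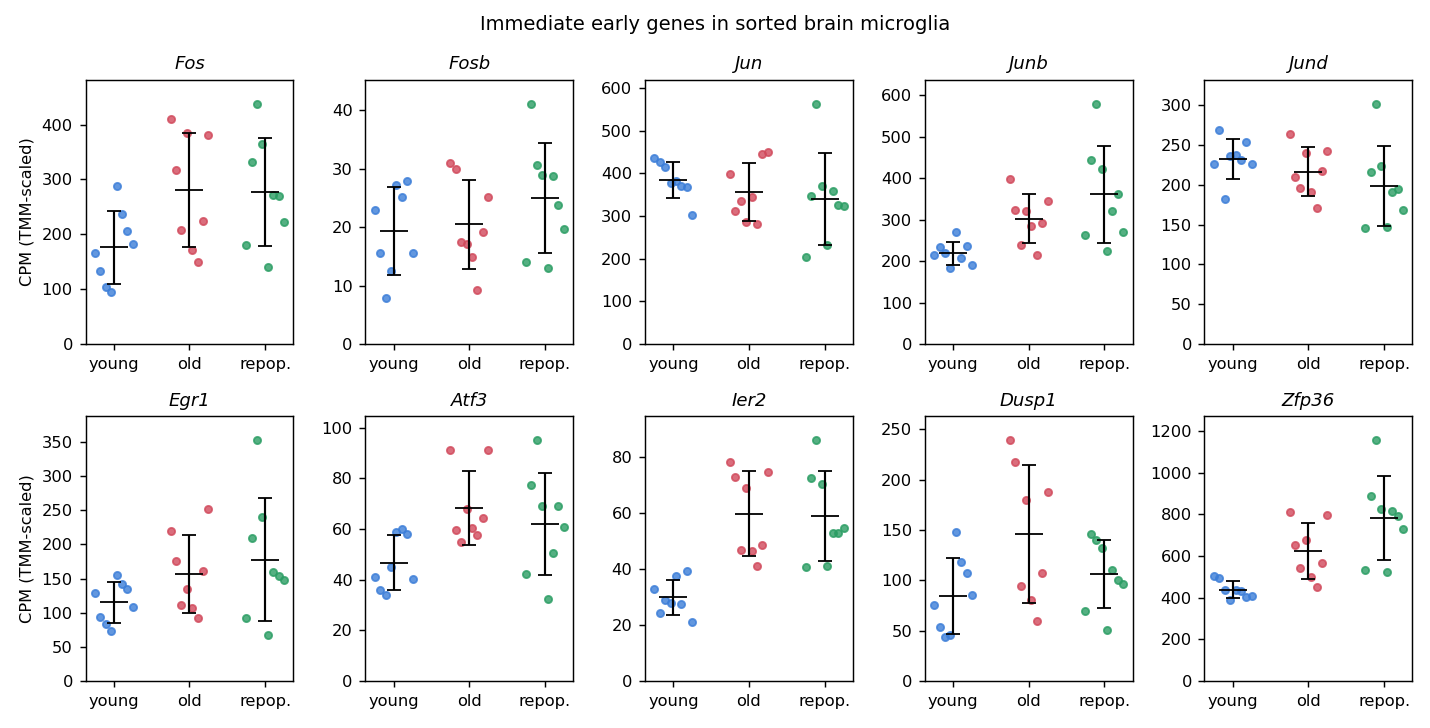
CPM of each member in the 24 microglia libraries, 1 point per library, with the mean ± SD of each group of 8 as bars and every axis from 0. For Ier2 the old libraries (41.0 to 78.1 CPM) lie above all young ones (21.0 to 39.2 CPM), and the other members overlap between young and old.

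None of the 10 genes was called between repopulated and old microglia by edgeR's quasi-likelihood test, where 16.2% of all genes were. At an unadjusted p under 0.05 there was 1, Zfp36, and DESeq2 and limma-voom also called 0. Log2 differences ran from −0.46 for Dusp1 to 0.32 for Zfp36. Zfp36 ran from 521 through 804 to 1154 CPM in repopulated microglia, with 4 of 8 libraries above the highest old one (SE 0.13, interval 0.07 to 0.58, adjusted p = 0.0835). Leaving out 1 library, old replicate 1 or 8 or repopulated replicate 1 or 5, brought its adjusted p to between 0.028 and 0.04. Dusp1 ran from 51.0 through 105 to 146 CPM, with 1 library above the old median (interval −0.99 to 0.06, adjusted p = 0.269). Ier2 and Fos were called in neither direction against old microglia, at medians of 53.8 and 271 CPM and log2 differences of −0.02 (interval −0.33 to 0.29) and −0.02 (−0.47 to 0.44). Neutrophil markers again moved with the comparison (9 of 10 fell and 1 rose), all 8 markers of border-associated macrophages and 4 of 8 monocyte markers fell, and their part was not tested.

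Repopulated against young microglia had 5 genes higher and none lower, against 16.1% of all genes higher and 16.5% lower. This comparison shares its young libraries with the age comparison and its repopulated libraries with the one before. Neutrophil markers (10 of 10 higher), monocyte markers (7 of 8 higher), border-associated macrophage markers (7 of 8 lower, 1 higher) and microglial markers (7 of 8 lower) moved with it, and their part was not tested. In CPM, Ier2 (log2 0.98, SE 0.16, adjusted p = 1.17e-05) and Zfp36 (log2 0.84, SE 0.13, adjusted p = 4.59e-06) rose without overlap, which 7.2% of all genes did. In TPM both overlapped, as the lowest repopulated library was at 47.9 for Ier2 and 540 for Zfp36. The highest young library was at 58.2 and 730 TPM. Junb rose by 0.72 on the log2 scale (SE 0.14, adjusted p = 0.000193), with 6 of 8 repopulated libraries above the young range, 225 through 341 to 579 CPM in all. Fos (log2 0.65, adjusted p = 0.0303) and Egr1 (log2 0.63, adjusted p = 0.0439) passed with overlapping groups. With limma on log2(TPM + 1), where the median of all genes was −0.28, Junb (0.34, adjusted p = 0.068), Fos (0.34, adjusted p = 0.25) and Egr1 (0.18, adjusted p = 0.57) were not called. With total-count scaling, where that median was −0.19, Fos (0.54, adjusted p = 0.067) and Egr1 (0.51, adjusted p = 0.1) were not called and Jund was called lower (−0.35, adjusted p = 0.016), which left 3 genes higher and 1 lower. Egr1 was also not called by DESeq2 (adjusted p = 0.051) or limma-voom (0.096). Both calls ended without repopulated replicate 3 (adjusted p = 0.076 for Fos and 0.15 for Egr1), the library that was highest for 8 of the 10 genes. They also ended without young replicate 2, 3 or 4 or repopulated replicate 4, that of Egr1 further without young replicate 8 or repopulated replicate 2 (adjusted p from 0.051 to 0.079). Atf3 missed the threshold (log2 0.41, SE 0.17, adjusted p = 0.0589) and passed it when any 1 of 9 libraries was left out (lowest adjusted p 0.011). Dusp1 had a log2 difference of 0.32 from young (interval −0.20 to 0.85, adjusted p = 0.406). Jun and Jund, at −0.18 and −0.23, were not called, but both were called lower without repopulated replicate 3 (adjusted p = 0.048 and 0.011).

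In old and repopulated microglia most members varied with Fos from library to library. Each relation of Fos with another member was computed over the 8 libraries of a group on log2 CPM, 54 relations in all, with exact two-sided permutation p-values adjusted by the Benjamini-Hochberg method. In repopulated microglia all 9 relations passed, with Pearson's r from 0.892 for Fosb to 0.988 for Egr1. Spearman's rho ran from 0.833 for Atf3 to 1 for Egr1 there (exact adjusted p from 0.00268 to 0.0461). In old microglia 7 of 9 passed by Pearson's r, with Zfp36 (r = 0.97, rho = 0.976), Ier2 (r = 0.969, rho = 0.929) and Dusp1 (r = 0.966, rho = 0.905) the closest, and 5 passed by Spearman's rho. Jun (r = 0.302, rho = 0.333, exact permutation adjusted p = 0.662 and 0.7) and Atf3 (r = 0.757, rho = 0.81, 0.0644 and 0.0588) did not. In young microglia 3 passed by either measure, Dusp1 (r = 0.987, rho = 0.976), Egr1 (r = 0.964, rho = 0.976) and Fosb (r = 0.859, rho = 0.881), while Zfp36 was at r = 0.034 and Jun at r = −0.312. On log2(TPM + 1) only 3 of the 7 relations in old microglia passed, as those with Fosb, Junb, Jund and Egr1 did not (exact permutation adjusted p from 0.06 to 0.084). Without the 2 libraries farthest from the median of Fos, r in old microglia was 0.934 for Zfp36. It fell to 0.541 for Fosb and 0.653 for Egr1. Leaving these libraries out narrows the range of Fos, which can itself lower r, so the falls do not settle what those 2 relations rest on. In repopulated microglia r stayed between 0.797 and 0.994. Relations were not compared between groups by a test.

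The same libraries were high or low for most members. In old microglia replicate 1 was highest for 8 of the 10 genes and replicate 6 lowest for 9. In repopulated microglia replicate 3 was highest for 8 and replicate 5 lowest for 7. In young microglia the highest and lowest were each spread over several replicates, with at most 4 genes in 1 library. Young replicate 5 was highest for 4 and among the 2 highest for 7 of the 10, and young replicates 3 and 4 were each lowest for 4. Neutrophil marker sums were 5746 CPM in old replicate 1, 3068 in old replicate 6, 4474 in repopulated replicate 3 and 2234 in repopulated replicate 5. Old replicates 2 and 4, at 6383 and 6602 CPM, were highest for 0 of the 10 genes. Old replicates 5 and 7, at 2688 and 2735.5 CPM, lay below old replicate 6. The other repopulated libraries lay between 1656 and 2362 CPM, on both sides of replicate 5. How these sums relate to the members was not tested. Old replicate 8 had the highest sum, 9633 CPM. It was highest for 2 genes, Jun and Egr1, and among the 2 highest libraries for 7 of the 10. The coefficient of variation of Fos was 37.6% in young, 37.2% in old and 35.4% in repopulated microglia, and that of Zfp36 was 9.4%, 21.3% and 25.9%. That of Jun was 10.9%, 18.8% and 31.7% in the same order.

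**Figure D3:**
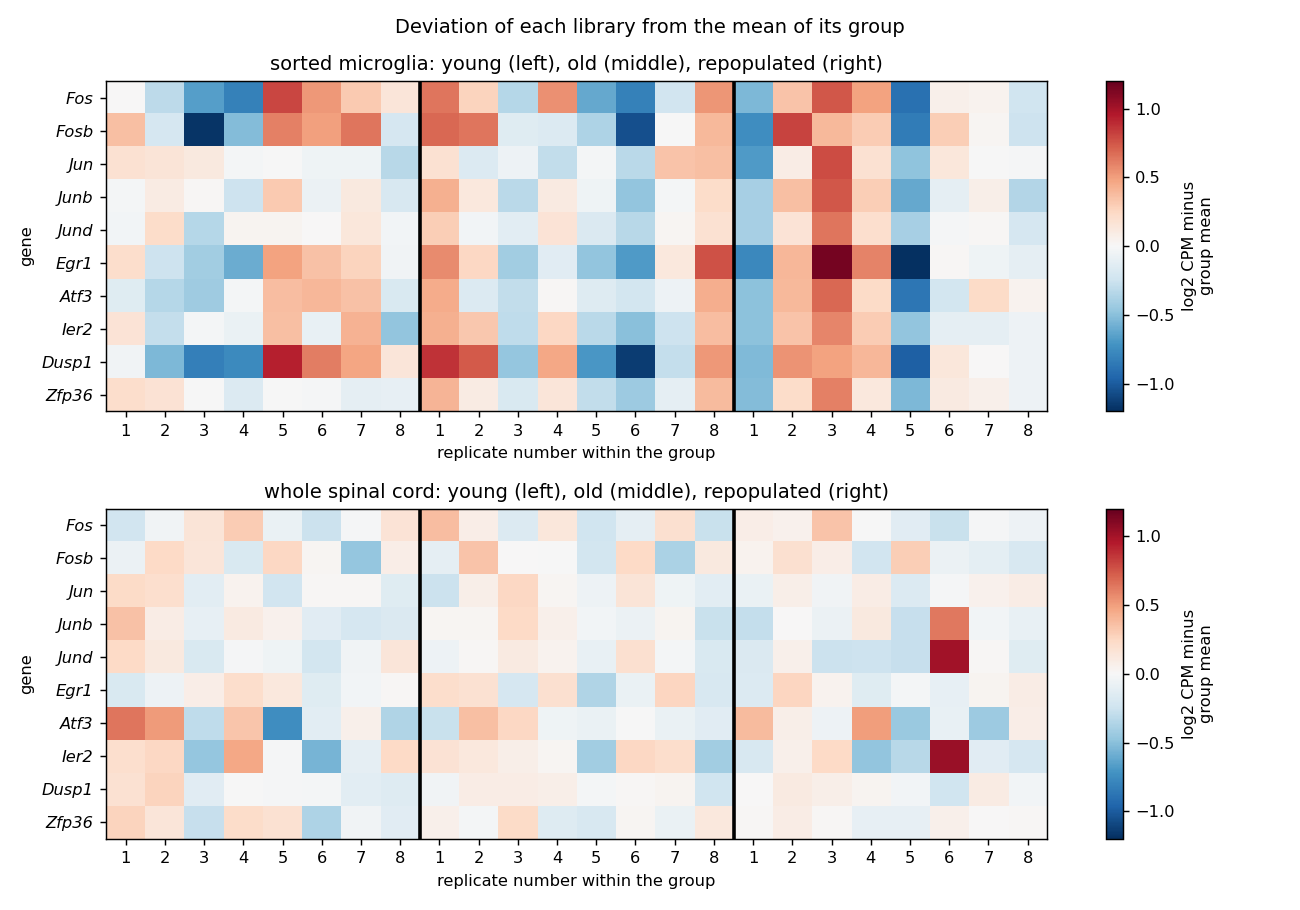
Log2 CPM of each member (rows) in each library (columns, by replicate number within young, old and repopulated) minus the mean of its group, red where higher and blue where lower. In old microglia replicate 1 is high and replicate 6 low for most members, and in repopulated microglia replicates 3 and 5 are, while cord columns hold no such pattern over all members.

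In cord the relations of Fos were few. Egr1 passed in young cord by Pearson's r (r = 0.815, exact permutation adjusted p = 0.0401) but not by rho (0.714, adjusted p = 0.135), and in old cord by both (r = 0.911, rho = 0.905). That in young cord did not pass on log2(TPM + 1) (exact permutation adjusted p = 0.065). In repopulated cord 0 of 9 passed, and 1 did with total-count scaling, Dusp1 (r = 0.831, exact permutation adjusted p = 0.044). The genes whose deviations from the group means were most like the mean of the members over the 24 microglia libraries were Socs3 (r = 0.92), Ppp1r15a (0.893), Btg2 (0.89), Nfkbia (0.877) and Ier5 (0.856), out of 9365 genes ranked. All 5 belong to the list of other early feedback genes below. Members themselves reached between 0.672 for Jun and 0.962 for Egr1 against the mean of the other members. In cord the most alike genes were Anxa1 (0.842), Mdfic (0.836), Foxd3 (0.826), Ifngr1 (0.817) and Vim (0.815), and the members reached only −0.033 for Fosb to 0.663 for Ier2. These values are descriptions over libraries that share preparation and depth.

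Between old and young cord 4 of the 10 genes rose and none fell, where 4.88% of all genes were called higher and 1.26% lower. Atf3 (chr1:191170296-191218039, minus strand) changed most. Its level ran from 2.10 through a median of 3.46 to 5.50 CPM in young and from 6.36 through 7.30 to 9.84 CPM in old cord. Every old library lay above every young one, which 2.45% of all genes did, and Atf3 rose by 1.06 on the log2 scale (SE 0.17, adjusted p = 0.000113, edgeR quasi-likelihood test over 18271 genes). Zfp36 ran from 6.71 through 8.95 to 10.4 CPM in young and from 9.96 through 11.4 to 13.3 CPM in old cord. All 8 old libraries were above the young median of Zfp36 and 6 above its young range (log2 0.38, SE 0.08, adjusted p = 0.00386).

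Junb ran from 7.71 through 8.74 to 11.3 CPM in young and from 9.51 through 11.6 to 13.5 CPM in old cord, and Fosb from 1.33 through 1.90 to 2.17 and from 1.84 through 2.41 to 3.04 CPM. Both overlapped between the groups and passed the threshold narrowly, Junb at log2 0.36 (SE 0.11, adjusted p = 0.045) and Fosb at log2 0.38 (SE 0.12, adjusted p = 0.0491). The call for Fosb was lost in 18 and that for Junb in 14 of the 24 fits that left out 1 library each, with adjusted p up to 0.13 and 0.098. The other 6 genes had log2 differences between −0.05 and 0.12. Egr1, at medians of 36.5 and 38.0 CPM, had an interval from −0.16 to 0.17, and Dusp1, at 14.6 and 14.5 CPM, one from −0.18 to 0.08. Ier2, the gene that changed most in microglia, had medians of 5.55 and 5.89 CPM in young and old cord (log2 0.07, interval −0.29 to 0.43, adjusted p = 0.934). Microglial markers moved with age in cord, where 4 of 8 rose and none fell, and their sum ran from 213 to 297 CPM in young and from 316 to 403 CPM in old libraries. Of 8 Schwann cell markers 3 fell. The part of either in the changes of Atf3, Zfp36, Junb and Fosb was not tested.

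**Figure D4:**
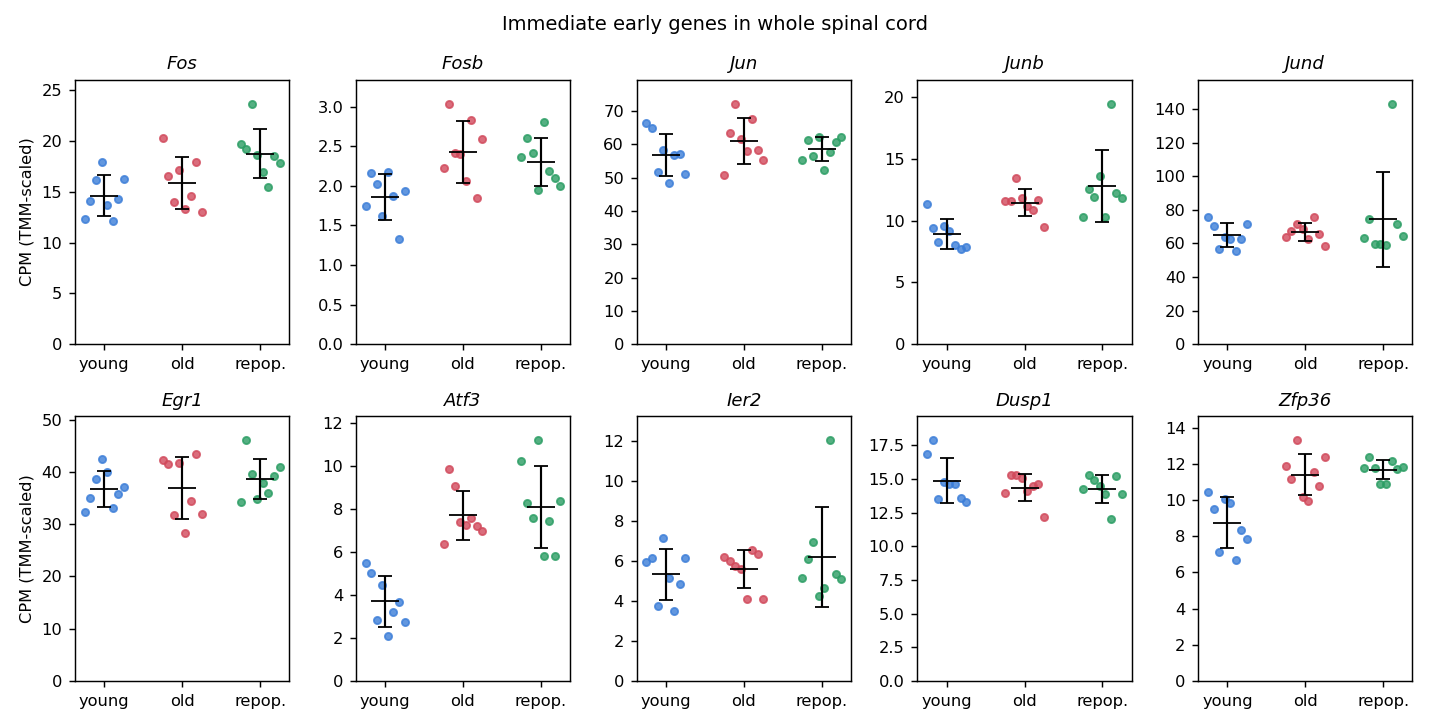
CPM of each member in the 24 cord libraries, 1 point per library, with the mean ± SD of each group of 8 as bars and every axis from 0. For Atf3 the old (6.36 to 9.84 CPM) and repopulated libraries (5.82 to 11.2 CPM) lie above all young ones (2.10 to 5.50 CPM).

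None of the 10 genes was called between repopulated and old cord by edgeR's quasi-likelihood test, and 0.148% of all genes were called. Fos alone had an unadjusted p under 0.05 (log2 0.24, interval 0.05 to 0.44, adjusted p = 0.681), and DESeq2 and limma-voom called 0. Fos ran from 15.4 through 18.5 to 23.6 CPM in repopulated cord and from 12.97 through 15.5 to 20.3 CPM in old cord. The other 9 genes had log2 differences between −0.08 and 0.16. In CPM, repopulated replicate 6 was the highest library of its group for Junb, Jund and Ier2 and the lowest for Fos and Dusp1. Its oligodendrocyte markers summed to 30837 CPM, against at most 20025 CPM in the other 7 libraries of the group. Counts of called members were the same without it.

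Against young cord, repopulated cord had 4 genes higher and none lower (7.28% of all genes higher and 2.78% lower). Atf3, at 5.82 through 7.94 to 11.2 CPM, rose by 1.13 on the log2 scale (SE 0.17, adjusted p = 3.51e-05), and Zfp36, at 10.9 through 11.8 to 12.4 CPM, by 0.42 (SE 0.08, adjusted p = 0.00116). In CPM neither overlapped the young group, as for 2.96% of all genes. In TPM both did, with a lowest repopulated library of 5.61 for Atf3 and 10.3 for Zfp36. For both genes that library was repopulated replicate 6, which had been set apart in earlier work. The highest young library was at 7.86 and 16.7 TPM. Junb rose by 0.52 (SE 0.11, adjusted p = 0.00176) and Fos by 0.36 (SE 0.10, adjusted p = 0.0192). The call for Fos ended without repopulated replicate 3 (adjusted p = 0.057) and with the length and GC offset (0.14). With limma on log2(TPM + 1) Zfp36 (adjusted p = 0.13) and Fos (0.36) were not called. Fosb, called with age, was at log2 0.31 and missed the threshold here (interval 0.08 to 0.54, adjusted p = 0.0966). Microglial markers summed to between 357 and 482 CPM in repopulated cord and 5 of 8 were higher than in young cord, which was not tested as a cause.

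The change with age was then compared between tissues in 1 fit over all 48 libraries. Ier2 alone was called, with the change in microglia exceeding that in cord by 0.76 on the log2 scale (SE 0.26, adjusted p = 0.0293), where 20.5% of all genes were called in either direction and 5.44% with the larger value in microglia. That call ended without young cord replicate 4 (0.68, adjusted p = 0.056) and with limma-voom (0.72, adjusted p = 0.26). Atf3 differed in the opposite direction, by −0.68 (SE 0.25), and missed the threshold (adjusted p = 0.0522), passing it in 13 of the 48 fits that left out 1 library (adjusted p down to 0.026). Zfp36, called with age in both tissues, had a difference between them of −0.04 (interval −0.37 to 0.29, adjusted p = 0.962). For Fos it was 0.38 (interval −0.19 to 0.95) and for Dusp1 0.66 (0.03 to 1.28, adjusted p = 0.144), so that for neither was a difference between the tissues called. For the change from old to repopulated 0 of 10 differed between tissues, none with an unadjusted p under 0.05, against 11% of all genes, and DESeq2 and limma-voom called 0.

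**Figure D5:**
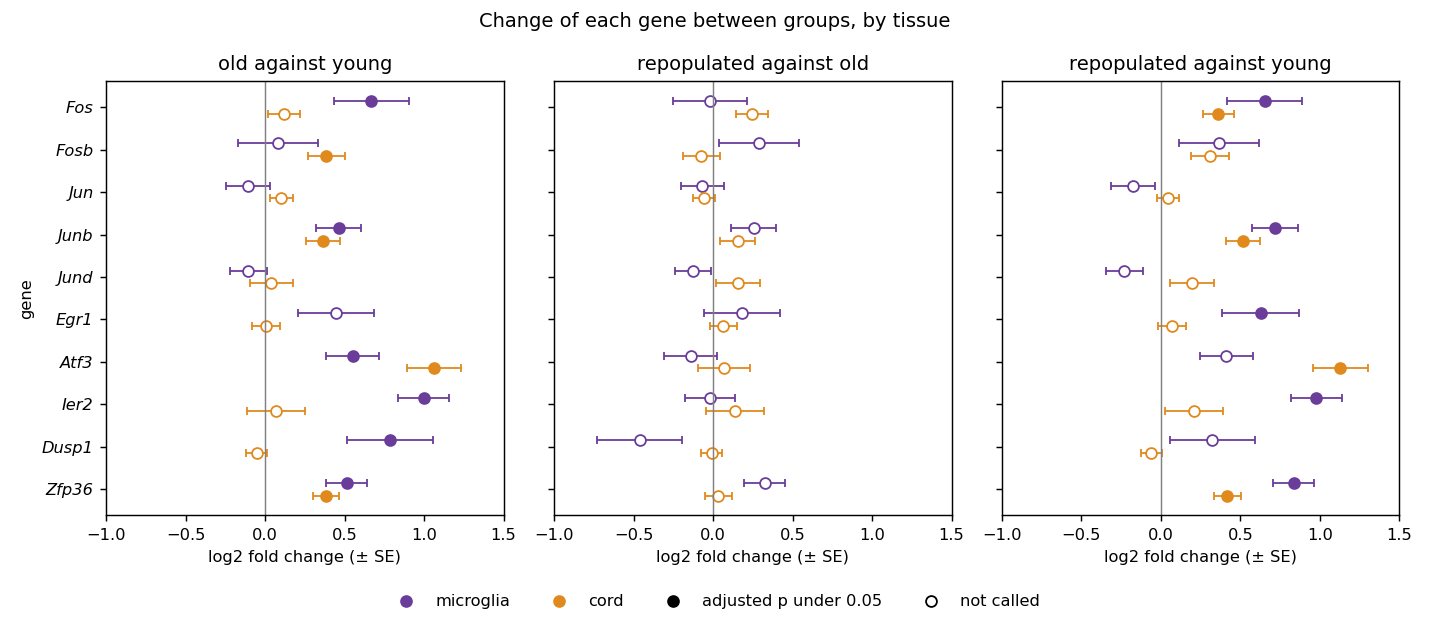
Log2 fold change of each member with its SE in the 6 comparisons within a tissue (microglia purple, cord orange), filled where the adjusted p was under 0.05. Ier2 (0.997) leads the age comparison in microglia and Atf3 (1.06) that in cord, and no member is filled in either comparison of repopulated with old.

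Other genes of the early response were counted from lists drawn by function. Counts with age are to be read against 11% of all genes called higher and 10.7% lower in microglia, and 4.88% higher and 1.26% lower in cord. Of 14 tested transcription factors of the same class 6 rose with age in microglia and none fell. Among them were the nuclear receptor Nr4a1 (log2 1.54, SE 0.25, adjusted p = 1.69e-05), which the monocyte list also holds, the small Maf protein Maff (log2 2.36, SE 0.33) and Egr2 (log2 1.48, SE 0.31). The largest was Bhlhe40, a repressor of the basic helix-loop-helix family, at 2.75 through 3.70 to 5.53 CPM in young and 13.6 through 21.5 to 30.4 CPM in old microglia (log2 2.49, SE 0.17, adjusted p = 1.03e-12). In old against young cord 2 of 14 of these factors rose, Maff among them (log2 0.49, adjusted p = 0.0157). Between repopulated and old microglia 2 of 14 fell and none rose, where 7.2% and 9.05% of all genes did.

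Of 23 early feedback and signalling genes 4 rose and 3 fell in old against young microglia, shares near those of all genes (11% and 10.7%). Nfkbiz, a regulator of NF-kB target genes, rose by log2 1.20 (SE 0.21), the pseudokinase gene Trib1 was lower at log2 −0.59 (SE 0.09) and so was the GTPase gene Rhob at −0.40 (SE 0.10). In repopulated against old microglia 3 of the 23 rose and 3 fell, where 9.05% and 7.2% of all genes did. Dusp6, which acts on ERK, was among those that fell (log2 −0.52, SE 0.12, adjusted p = 0.00297). In old against young cord 4 of 24 rose and none fell, among them Socs3 (log2 0.90, SE 0.12, adjusted p = 1.38e-05) and Ier5 (log2 0.32, SE 0.10, adjusted p = 0.0442).

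Of 10 other AP-1 and ATF partners 1 rose and 1 fell with age in microglia, no more than the shares of all genes (11% and 10.7%), Batf2 (log2 1.31, SE 0.36) and Maf (log2 −0.52, SE 0.09). In repopulated against old microglia 1 of the 10 rose and 2 fell, where 9.05% and 7.2% of all genes did. Atf4, a factor of the integrated stress response, was among those that fell (log2 −0.59, SE 0.09, adjusted p = 2.31e-05).

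Of 16 kinases and promoter factors upstream of the early genes 1 rose and 4 fell in old microglia, where 11% and 10.7% of all genes did. Mapkapk2, a kinase of the p38 pathway that acts on Zfp36 protein, rose by log2 0.58 (SE 0.06, adjusted p = 2.89e-09). The ribosomal S6 kinase gene Rps6ka1 (log2 −0.52, SE 0.05), the p38 gene Mapk14 (log2 −0.38, SE 0.06) and the MEK gene Map2k1 (log2 −0.29, SE 0.06) were lower. In cord 1 of 16 rose with age (4.88% of all genes), Rps6ka1 (log2 0.26, adjusted p = 0.00807). Between repopulated and old microglia 2 of 16 rose and none fell, where 9.05% and 7.2% of all genes did.

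Messages that Zfp36 protein is known to bind were counted next. All 7 tested targets rose in old microglia (11% of all genes) and 4 of 6 in old cord (4.88%). The neutrophil and monocyte markers given above rose in the same microglia comparison, and their part was not tested. The chemokine Ccl3 went from 20.2 through 24.2 to 34.2 CPM to 75.3 through 79.9 to 113 CPM with age in microglia (log2 1.83, SE 0.13), without overlap, and Ccl4 rose by log2 1.89 (SE 0.14), Ccl2 by 1.71 (SE 0.21) and Il1b by 2.38 (SE 0.25). In repopulated against old microglia 1 of 7 fell (7.2% of all genes), Il1b (log2 −0.76, SE 0.23, adjusted p = 0.0222). In the same comparison of cord 0 of 6 were called (0.148% of all genes).

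Heat shock genes respond to protein damage and warmth. Of 12, 1 rose and 3 fell with age in microglia (11% and 10.7% of all genes), and 5 rose and 1 fell in repopulated against old microglia (9.05% and 7.2%). The mitochondrial chaperone gene Hspe1 rose by 1.04 on the log2 scale in repopulated against old microglia (SE 0.13, adjusted p = 1.01e-06), where the groups did not overlap, and Hspd1, its partner, rose by 0.21 (adjusted p = 0.0391). Hsph1 was lower with age in both tissues, by log2 −0.77 (SE 0.20) in microglia and −0.26 (SE 0.05) in cord, and Hspa5, the chaperone of the endoplasmic reticulum, was lower in microglia (log2 −0.33, SE 0.07). In cord 5 of 12 heat shock genes fell with age and none rose, against 1.26% of all genes lower.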

How the data were processed

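RNA sequencing of 48 libraries was analysed from the deposited tables. Per the labels' protocols, libraries were made from polyadenylated RNA with a TruSeq kit. STAR 2.5.2b and GRCm38.p5 are named by the submitters' processing notes, while no source used here gives the counting tool or annotation. The authors' deposited counts, whole reads per gene, were tested unchanged. The deposited TPM equal counts per length rescaled per library (largest difference 0.0005), and the gene length (other) is that of the authors' deposited table. Deposited FPKM were not used.

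Counts were tested in R 4.3.3 with edgeR 4.0.16 (TMM, filterByExpr with a minimum count of 10 and a minimum total of 15, quasi-likelihood test, Benjamini-Hochberg adjustment, adjusted p under 0.05), per tissue over 24 libraries (14382 genes in microglia, 18271 in cord) and jointly over 48 (19110 genes). The SE is the log2 fold change divided by the root of F, and 95% intervals are 1.96 SE on either side. Log2 CPM used a prior count of 1. Total counts per library limit the precision, and with no molecular identifiers reads are not independent molecules. No 2 libraries of a group were alike within sampling noise (168 pairs, lowest chi-square per gene 3.24). Positions are from GENCODE M21. Alternatives used DESeq2 1.42.0, limma 3.58.1 (voom, and log2(TPM + 1) and log2(TPM + 0.1)), other scalings and filters, a replicate block, the library number as a covariate, an offset on length and GC content (92.6% of microglia and 85.9% of cord genes had GC values, as did all 10 members), the groups compared alone, and libraries left out. The fits were tested on simulated data. Named genes are all members, at most 4 genes of each other list with the smallest adjusted p in any comparison within a tissue, and the 5 genes per tissue most like the members, with a mean of at least 5 CPM. Socs3 and Ier5 are named in cord after their values were seen. A result of the list of AP-1 and ATF partners in cord is not reported here. The members and lists were chosen with earlier results of these data known.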

Additional observations from a re-analysis of the deposited data

Results flagged for a closer look

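In groups of 8 libraries, a library was looked at when its gap in CPM to the next, as a share of the range of its group, exceeded the critical value of Dixon's test. Of 60 checks (10 genes in 6 groups) 6 met this, and chance gives about 1 in 20.

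In repopulated cord, replicate 6 was high for Junb (19.5 CPM, next 13.6), Jund (143 CPM, next 74.2) and Ier2 (12.04 CPM, next 6.95) and low for Dusp1 (12.04 CPM, next 13.9). These gaps are those of CPM. In TPM all libraries of that group lay between 57.9 and 74.9 for Jund, 15.8 and 20.9 for Junb and 7.86 and 12.8 for Ier2. The oligodendrocyte marker sum of replicate 6 (30837 CPM) and its microglial marker sum (482 CPM) were the highest of that group. Jund, the gene with the widest gap, was called in no comparison within cord with or without this library.

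In old cord, replicate 8 was low for Dusp1 (12.2 CPM, next 13.9). In repopulated microglia, replicate 3 was high for Jun (563 CPM, next 370), and it was also highest for 7 other members. The change of Ier2 with age differed between tissues (log2 0.76 larger in microglia, SE 0.26, edgeR adjusted p = 0.0293), and every one of 8 old microglia libraries exceeded the young ones while the cord groups overlapped.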

How the results depend on the processing

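No direction of a called value reversed. Of 4050 recomputed member values 3903 stayed on their side of the threshold, 102 lost it and 45 gained it. Ier2 and Zfp36 in old and in repopulated against young microglia, Atf3 and Zfp36 in old against young cord, Atf3 and Junb in repopulated against young cord, and all 10 genes between tissues were called under every setting run. In old against young microglia 3 genes instead of 6 were called on log2(TPM + 1) and log2(TPM + 0.1) (Fos, Junb and Dusp1 lost) and with the length and GC offset (Fos, Atf3 and Dusp1 lost). In repopulated against old microglia 1 was called on either TPM scale (Jund, lower) and 2 with the offset (Junb and Zfp36), in place of 0. In repopulated against young cord 2 were called on either TPM scale in place of 4. The difference between tissues in age had 0 calls with limma-voom and 2 with the library number as a covariate, and that in repopulation 1 with the offset (Zfp36). In repopulated against young microglia the TPM scales called 2 higher and 2 lower (Jun and Jund). The TPM setting changes scaling, length and test together, and the cause of these changes was not tested.

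Fits without 1 library gave 4 to 6 calls in old against young microglia, 0 to 1 in repopulated against old, 3 to 6 in repopulated against young, 2 to 4, 0 to 0 and 3 to 4 in the same comparisons of cord, 10 between tissues, 1 to 2 for the difference in age and 0 for that in repopulation. The replicate numbers did not pair the libraries: same-numbered libraries correlated between −0.12 and 0.13 in microglia and between −0.49 and 0.43 in cord, and 2 of 24 correlated best with their own number in either tissue. With the number as a replicate block 4 members were called in old against young microglia, 3 in repopulated against young (Fos and Egr1 lost), 3 in old against young cord, 4 in repopulated against young cord and 2 for the difference in age. Of 54 relations of Fos 21 passed. On log2(TPM + 1) 16 did (4 lost in old microglia, 1 in young cord), and with total-count scaling 22 did (Dusp1 in repopulated cord gained).

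Counts over all genes moved more. Calls in repopulated against old microglia were 2336, and 4779 and 4643 on log2(TPM + 1) and log2(TPM + 0.1), in repopulated against young microglia 4698, 7378 and 7478, in repopulated against young cord 1839, 1030 and 1003 (2994 with the offset, 1211 with the groups compared alone), in repopulated against old cord 27, 13 and 12 (66 with DESeq2, 41 with the offset), and in the difference in age 3913, 2076 and 1835 (2606 with total counts, 1991 with the offset). In old against young cord they were 1123, 2052 with the offset, 1844 with the groups alone and 2109 without repopulated cord replicate 6. In the difference in repopulation they were 2107, 3307 with total counts, 1374 with limma-voom and 1388 with the replicate block. Total-count scaling moved the median of all genes in repopulated against old microglia from −0.04 to −0.21 and the share called higher from 55.7% to 17.6%. In repopulated against young microglia it moved the median from −0.06 to −0.19 and that share from 49.4% to 31.8%. The length and GC offset moved these the other way, to medians of 0.12 and 0.07 and to 83.1% and 72.4% higher, and lowered the share in old against young cord from 79.4% to 42.2% and in repopulated against young cord from 72.4% to 41.55%. With DESeq2 size factors 60.9% instead of 50.7% of calls in old against young microglia were higher. In the difference in age the share was 26.6%, and 51.0% with total counts, 49.3% with DESeq2 size factors and 59.1% with the offset. In that in repopulation it was 31.6%, 14.8% and 70.1% with total counts and the offset, and between tissues 39.8%, 25.4% and 62.0%. Fosb in cord, with 35 to 96 counts a library, was the member most limited by depth.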
